A study of Mus musculus with 40 samples.

Results

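The genes described here make tryptophan, or split it to indole, in bacteria of the mouse cecum. They were the rows of 5 count tables, each covering the genome of 1 bacterium, whose symbol, after removal of a copy number, was trpA, trpB, trpC, trpD, trpE, trpF, trpG or tnaA. The rule found 10 rows among 16742 features. F. rodentium held 6 of them (trpA, trpB, trpC, trpD, trpE and trpF), L.bacterium335 held 2 (trpA and trpB), and Acetatifactor and D. muris held 1 each (trpB). No row of the X. muris table had a matching symbol, and no row of any of the 5 tables was named trpG or tnaA. Many features carry only a locus identifier and could not be matched, so a gene without a matching row is not shown to be missing from a bacterium. No member had a numbered copy. A sixth table, for Alistipes, lies outside the rule and was not analysed here.

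Bacteria build tryptophan from chorismate, the end point of the shikimate pathway. Anthranilate synthase, encoded by trpE with trpG, makes anthranilate, and the products of trpD, trpF and trpC turn it into indole-3-glycerol phosphate. Tryptophan synthase, encoded by trpA and trpB, releases indole from that compound and joins it to serine. Tryptophanase, the product of tnaA, runs the other way and frees indole from tryptophan. In the gut, bacterial indole and its derivatives, and indole compounds derived from cruciferous vegetables such as broccoli, are known ligands of the host's aryl hydrocarbon receptor.

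All mice were C57BL/6, were 3 weeks old when placed on the Total Western Diet, a rodent diet built to resemble Western nutrient intake, and stayed on it for 6 weeks. For 3 more weeks they kept to that diet, unsupplemented (0%) or with broccoli powder at 0.5%, at 1% or at 2.5%, and 10 libraries of cecal RNA depleted of ribosomal RNA were made per group, 40 in all. The labels do not say whether each library came from a separate mouse, or which mice shared a cage, so the p-values measure the spread between these libraries, which may be partly technical. The 40 libraries held between 232791 and 5107126 counts over the 5 tables, with a median of 820308.5. No pair of libraries of a group looked like a library deposited more than once.

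Levels are given as CPM, a gene's counts per 1000000 counts on the same genome after TMM scaling, so a change is relative to the rest of that bacterium's RNA. A gene was called where the adjusted p of edgeR's quasi-likelihood test, corrected over all tested features of the genome, was under 0.05. A member had to pass a filter on low counts to be tested, and 7 of the 10 did: all 6 of F. rodentium and trpB of D. muris. The tables give no gene lengths, so levels of different genes were not set against each other.

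In F. rodentium, 4 of the 6 tryptophan genes were higher at 2.5% than at 0% broccoli. The genes called were trpE, trpD, trpF and trpB, with log2 changes between 1.39 and 2.13, or 2.61-fold to 4.37-fold. The remaining members, trpA and trpC, had positive changes that did not pass. Of all 1689 tested F. rodentium features, 5.39% were called higher in the same comparison. The median log2 change was 1.69 over the 6 members and 0.008 over all tested features. The members were chosen with earlier results of these data known, so setting them against all features is a description and not a test. This comparison used 8 libraries at 2.5% and 10 at 0%, since replicates 6 and 9 of the 2.5% group held only 161 and 352 F. rodentium counts.

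The gene trpE encodes component I of anthranilate synthase, which commits chorismate to tryptophan. Its lowest, median and highest levels were 11.1, 50.6 and 65.5 CPM at 0%, 17.3, 59.9 and 207 CPM at 0.5%, 21.1, 60.7 and 77.1 CPM at 1%, and 0, 84.9 and 269 CPM at 2.5%. At 2.5%, replicates 3, 5, 8 and 10 lay above every 0% library, while replicates 2 and 4 had no trpE count, so the groups overlapped. The mean was 105 ± 102 CPM at 2.5% (SD, n = 8) against 47.2 ± 18.9 CPM at 0% (SD, n = 10). The log2 change was 1.39 ± 0.43 (SE), with an adjusted p of 0.0329 by edgeR, and 5 of the 8 libraries at 2.5% lay above the 0% mean.

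The gene trpD encodes anthranilate phosphoribosyltransferase, the step after anthranilate. Its lowest, median and highest levels were 0, 27.4 and 90.4 CPM at 0%, 11.4, 24.7 and 159.6 CPM at 0.5%, 0, 35.8 and 263 CPM at 1%, and 0, 66.6 and 446 CPM at 2.5%. The 446 CPM came from 19 counts in replicate 2, the shallowest 2.5% library used, and replicate 5 followed with 279 CPM from 47 counts. The mean was 133 ± 154 CPM at 2.5% (SD, n = 8) against 30.6 ± 27.5 CPM at 0% (SD, n = 10). The log2 change was 2.09 ± 0.65 (SE), with an adjusted p of 0.0318 by edgeR, and 6 of the 8 libraries at 2.5% lay above the 0% mean.

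The gene trpF encodes phosphoribosylanthranilate isomerase, the step after trpD. Its lowest, median and highest levels were 0, 9.57 and 24.1 CPM at 0%, 0, 23.2 and 42.8 CPM at 0.5%, 0, 13.7 and 88.3 CPM at 1%, and 0, 33.9 and 116 CPM at 2.5%. The 2.5% libraries split: replicates 3, 5, 8 and 10 held 59.4 to 116 CPM, above every 0% library, and replicates 1, 2 and 4 held no trpF count. The mean was 41.7 ± 45.3 CPM at 2.5% (SD, n = 8) against 10.4 ± 7.99 CPM at 0% (SD, n = 10). The log2 change was 2.13 ± 0.62 (SE), with an adjusted p of 0.0239 by edgeR, and 4 of the 8 libraries at 2.5% lay above the 0% mean. Replicate 8 held 75 of the 107 trpF counts of its group.

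The gene trpC encodes indole-3-glycerol phosphate synthase, which closes the indole ring. Its lowest, median and highest levels were 26.6, 37.9 and 112 CPM at 0%, 32.1, 60.6 and 138 CPM at 0.5%, 0, 26.5 and 109.6 CPM at 1%, and 46.96, 85.4 and 273 CPM at 2.5%. All 8 libraries at 2.5% held trpC counts, 7 of them above the 0% mean, but the groups overlapped. The log2 change at 2.5% over 0% was 0.87 ± 0.42 (SE), with an adjusted p of 0.170 by edgeR and a 95% interval of 0.05 to 1.68.

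The genes trpA and trpB encode the alpha and beta subunits of tryptophan synthase. For trpB, the lowest, median and highest levels were 0, 11.6 and 72.3 CPM at 0%, 15.6, 27.4 and 139.9 CPM at 0.5%, 2.22, 35.3 and 165 CPM at 1%, and 0, 76.1 and 186 CPM at 2.5%. The medians increased with dose, although every pair of groups overlapped. The mean of trpB was 72.7 ± 63.8 CPM at 2.5% (SD, n = 8) against 19.3 ± 21.5 CPM at 0% (SD, n = 10). Its log2 change was 1.99 ± 0.59 (SE), with an adjusted p of 0.0278 by edgeR, and 6 of the 8 libraries at 2.5% lay above the 0% mean. For trpA, the lowest, median and highest levels were 0, 76.5 and 226 CPM at 2.5%, against 9.29, 38.4 and 82.7 CPM at 0%. Its log2 change was 1.25 ± 0.49 (SE), with an adjusted p of 0.0987 by edgeR and a 95% interval of 0.29 to 2.21. Whether the changes of the 6 members differ from one another was not tested, and the intervals of trpA and trpC overlap those of the 4 genes called.

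**Figure D1:**
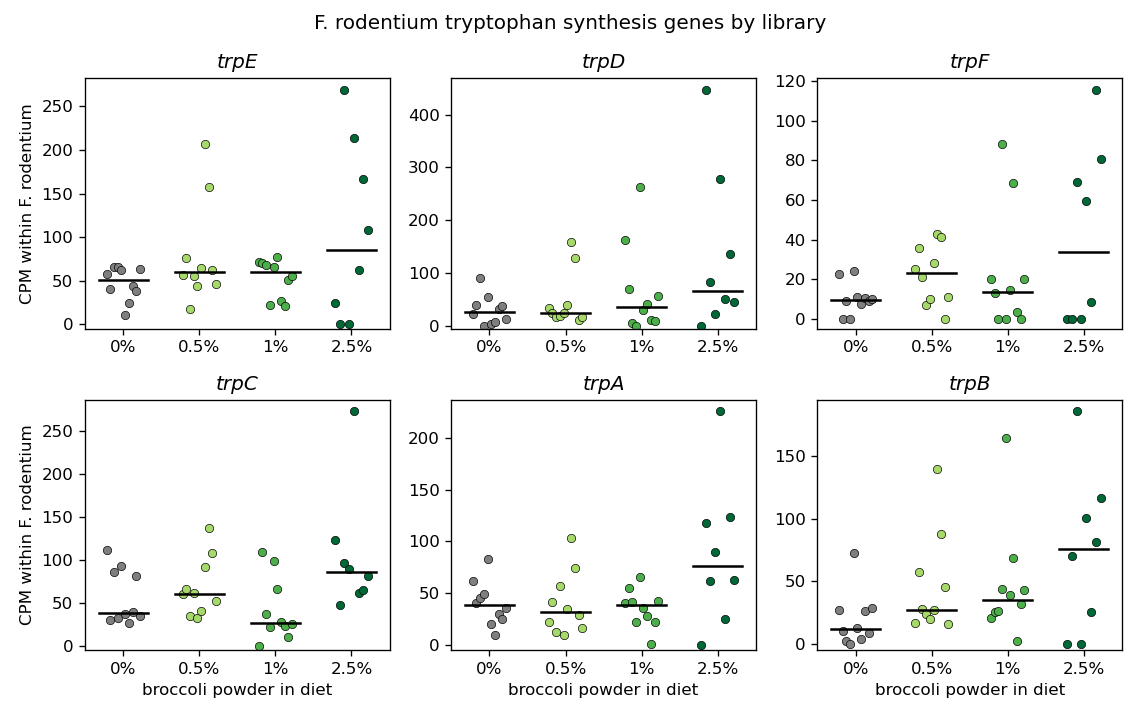
Level of each F. rodentium tryptophan gene in each library, as CPM within that genome (vertical axis), by percent of broccoli powder (horizontal axis); points are libraries with at least 10000 F. rodentium counts and bars are group medians. In trpF, 4 of the 8 libraries at 2.5% stand above every 0% library while 3 sit at 0.

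The 4 calls depended on particular libraries. Only 1 member was called without replicate 3 of the 2.5% group (trpD) or without replicate 7 of the 0% group (trpF). The count was 2 without replicate 5 of the 2.5% group (trpB and trpF), without replicate 8 of the 2.5% group (trpB and trpD) and without replicate 6 of the 0% group (trpB and trpF). The call of trpD, alone of the 4, was also lost without replicate 2 of the 2.5% group or replicate 10 of the 0% group. Over all 38 libraries left out in turn, the log2 change of trpB ranged between 1.65 and 2.45, that of trpD between 1.69 and 2.49, that of trpE between 1.10 and 1.51, and that of trpF between 1.68 and 2.34. Without libraries 76 to 81, which sit apart from the rest in the library numbering, trpD and trpE were called, and trpB and trpF kept log2 changes of 1.88 and 2.01, each with an adjusted p of 0.0521 by edgeR.

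Depth on F. rodentium moved with the diet. The libraries used held 32723 to 527971 F. rodentium counts at 2.5%, with a median of 121705, against 118257 to 1679807 at 0%, with a median of 511338. A single count was worth up to 24.7 CPM at 2.5% and up to 10.2 CPM at 0%. The zeros at 2.5% fell in replicates 1, 2 and 4, the 3 libraries used in that group with under 50000 counts. With at least 50000 counts required, 5 libraries remained at 2.5%, and trpB, trpE and trpF were called with log2 changes of 2.30, 1.80 and 2.51, while trpD had 1.97 with an adjusted p of 0.0583 by edgeR. With the genome's count total as a covariate, none of the 6 was called, with log2 changes of 1.46 for trpE and 2.08 for trpF and adjusted p-values of 0.0619 and 0.0585 by edgeR. The log2 changes in that fit were 1.62 for trpB, 1.54 for trpD, 1.02 for trpA and 0.69 for trpC. Fewer F. rodentium cells and less RNA per cell cannot be told apart in these data.

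**Figure D2:**
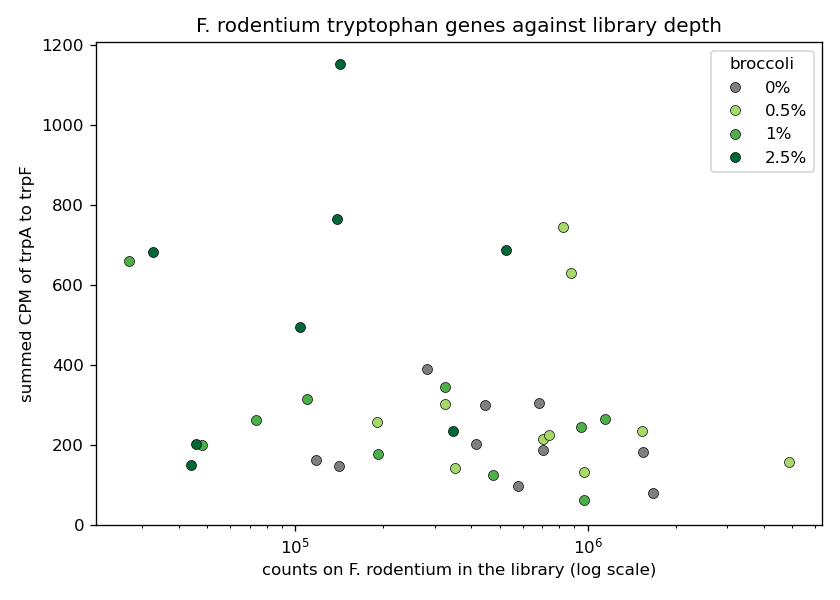
Summed CPM of the 6 F. rodentium tryptophan genes (vertical axis) against the library's F. rodentium counts (horizontal axis, log scale), 1 point per library, coloured by percent of broccoli powder. At 2.5% the sum runs between 148 and 1152 CPM, and at 0% between 79.9 and 389 CPM, with 2.5% libraries toward the left, at lower counts.

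Summed over the 6 genes, the lowest, median and highest levels were 79.9, 184 and 389 CPM at 0%, 131, 229 and 743 CPM at 0.5%, 62.2, 253 and 658 CPM at 1%, and 148, 588 and 1152 CPM at 2.5%. At 2.5%, replicates 2, 3, 5, 8 and 10 lay above every 0% library, and replicates 1, 4 and 7 lay inside the 0% range. Replicates 3, 5, 8 and 10 lay above the 0% mean for each of the 4 members called. The 658 CPM at 1% rested on 20 counts in the shallowest 1% library, replicate 5.

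None of the 6 F. rodentium members was called at 0.5% or at 1%. At 0.5%, where 8.47% of the tested features were called in either direction, 1 member, trpB, had an unadjusted p under 0.05 by edgeR. Its log2 change was 1.22 ± 0.53 (SE), with an adjusted p of 0.158 by edgeR, and DESeq2 also called 0 members. Replicates 7 and 8 of the 0.5% group held 139.9 and 88.2 CPM of trpB, 207 and 158 CPM of trpE, and 159.6 and 129.7 CPM of trpD, the highest levels of those genes in that group. They are libraries 76 and 77, and without libraries 76 to 81 the log2 change of trpB at 0.5% was 0.51 with an adjusted p of 0.824 by edgeR. Without replicate 5 of the 0% group, which held 72.3 CPM of trpB, trpB was called at 0.5%, with a log2 change of 1.69 and an adjusted p of 0.0427 by edgeR.

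At 1%, where 0.474% of the tested features were called, 0 members had an unadjusted p under 0.05 by edgeR and DESeq2 called 0. The log2 changes at 1% over 0% ran between -0.50 for trpC and 0.84 for trpB. In trpB, 9 of the 10 libraries at 1% lay above the 0% mean, with an adjusted p of 0.721 by edgeR.

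A slope on the percent of broccoli, fitted over all 4 diets, was above 0 for all 6 members and passed the test for 2 of them, against 3.37% of tested features called with a positive slope. The slope of trpD was 0.79 ± 0.24 log2 units (SE) per percent of broccoli, with an adjusted p of 0.0392 by edgeR, and that of trpF was 0.74 ± 0.23 (SE), with an adjusted p of 0.0466 by edgeR. No member was called in the slope without any 1 of 2.5% replicates 3, 5 and 8 or 0% replicates 4, 6, 7 and 10. The trpF call was lost without any 1 of 20 of the 38 libraries. With at least 50000 counts required, trpE and trpF were called and trpD was not (adjusted p = 0.0899 by edgeR), and without libraries 76 to 81, trpD and trpE were called and trpF was not (adjusted p = 0.0625 by edgeR). The count was 4 without replicate 7 of the 2.5% group (trpA, trpB, trpD and trpF) and without replicate 7 or replicate 8 of the 0.5% group (trpB, trpD, trpE and trpF).

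Genes that feed or neighbour the pathway in F. rodentium did not pass edgeR's test at 2.5% over 0%. None of the 7 tested genes of the shikimate pathway, which makes chorismate, was called, and their median log2 change was 0.32. The closest were aroE, shikimate dehydrogenase, with a log2 change of 1.20 ± 0.45 (SE) and an adjusted p of 0.0821 by edgeR, and aroF_2, one of 2 copies of the entry enzyme, with 0.68 ± 0.27 (SE) and an adjusted p of 0.106. The list for the phenylalanine and tyrosine branch, which also starts at chorismate, held 4 tested genes: pheA, tyrC, hisC_1 and hisC_2. The symbol hisC names an aminotransferase of histidine synthesis, so its copies may not belong to the branch. None of the 4 was called, with a median log2 change of 0.30, and pheA and tyrC had 0.31 and 0.29. The gene pabA encodes a glutamine amidotransferase of folate synthesis, closely related in sequence to trpG, and had a log2 change of 1.05 ± 0.51 (SE) with an adjusted p of 0.172 by edgeR. The gene trpS, whose product loads tryptophan onto its transfer RNA, had 0.35 ± 0.36 (SE) with an adjusted p of 0.582. None of the 4 tested genes that supply serine, glutamine or phosphoribosyl pyrophosphate was called, with a median log2 change of 0.12. At unadjusted p under 0.05, the genes of these lists at 2.5% over 0% were aroE, aroF_2, pabA and prs, the last with a log2 change of -0.44. DESeq2 called 2 of them, aroE and aroF_2, and 260 of all tested F. rodentium features. At 0.5%, where edgeR called 8.47% of all tested features, 1 of the 7 shikimate genes was called. It was aroB (3-dehydroquinate synthase), with a log2 change of 0.71 ± 0.23 (SE) and an adjusted p of 0.0432 by edgeR. DESeq2 called 3 at that dose (aroA, aroB and aroC), and its share over all features there is not given here. The differences between these lists and the tryptophan genes were not tested.

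**Figure D3:**
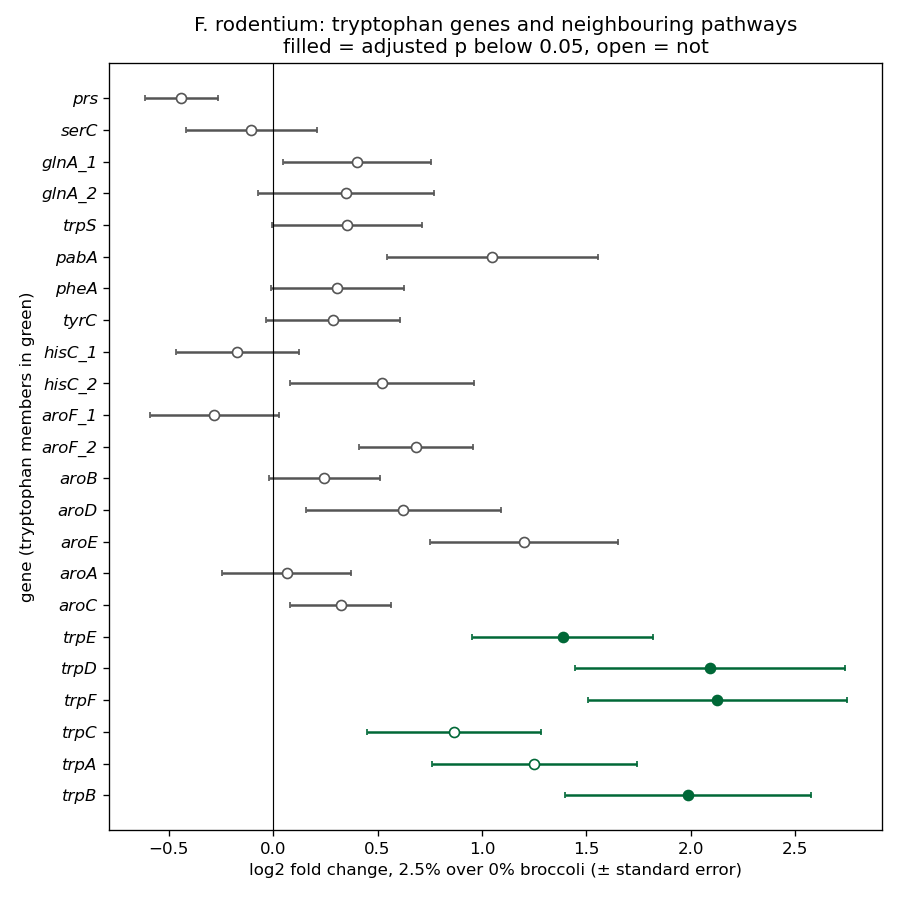
Log2 fold change of each F. rodentium gene at 2.5% over 0% broccoli (horizontal axis) with its standard error; tryptophan members in green, other genes in grey, filled points with an adjusted p under 0.05. The filled points are trpE, trpD, trpF and trpB, and no gene of the other lists is filled under edgeR.

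Levels were set against trpE across the 38 F. rodentium libraries used, for named features at or above the median level of tested features. The tryptophan genes were left out of that search. By level trpE ranked 1171 of 1689, below every feature searched. The closest of these was recG, a DNA helicase gene, with a Spearman correlation of 0.694. Next came kdpD_1 at 0.635 and nagR_1 at 0.570, out of 536 named features with a median correlation of -0.084. The other tryptophan genes correlated with trpE at 0.445 for trpC to 0.57 for trpA. These correlations are descriptions over libraries that share their genome total and scaling, and within diet groups that of recG was 0.654 and that of trpA 0.551.

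In D. muris, the trpB level was not found to change at any dose. Its lowest, median and highest levels were 79.8, 392 and 857 CPM at 0%, 408, 509 and 858 CPM at 0.5%, 249.5, 432 and 621 CPM at 1%, and 372, 506 and 826 CPM at 2.5%. The means were 430.3 ± 269.9 CPM at 0% (SD, n = 9), 584 ± 170.0 CPM at 0.5% (SD, n = 9), 425 ± 130.1 CPM at 1% (SD, n = 10) and 528 ± 153 CPM at 2.5% (SD, n = 9). In increasing order the means ran 1%, 0%, 2.5% and 0.5%, and no neighbours in that order differed by more than their SD. The 0% libraries were the most spread, and all groups overlapped.

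The log2 change of D. muris trpB at 2.5% over 0% was 0.24 ± 0.27 (SE), with an adjusted p of 0.671 by edgeR and a 95% interval of -0.30 to 0.77. At 1% it was -0.07 ± 0.27 (SE), with an adjusted p of 0.956, and at 0.5% it was 0.38 ± 0.28 (SE), with an adjusted p of 0.582. The slope was 0.04 ± 0.10 (SE) per percent of broccoli, with an adjusted p of 0.879 by edgeR. No one of these 4 tests had an unadjusted p under 0.05, and DESeq2 called 0. Of the 1108 tested D. muris features, 4.96% were called at 0.5%, 6.23% at 1%, 10.6% at 2.5% and 8.3% in the slope. Neither of 2 tested shikimate genes (aroB and aroE) nor trpS was called in D. muris at any dose. Of 4 tested genes that supply serine, glutamine or phosphoribosyl pyrophosphate, 1 was called, serC (phosphoserine aminotransferase, a step to the serine that trpB uses), at 1% only, with a log2 change of 0.53 ± 0.16 (SE) and an adjusted p of 0.0319 by edgeR. Named features at or above the median level of tested D. muris features were also set against trpB over its 37 libraries. The closest of these 312 were asnA, an asparagine synthetase gene, with a Spearman correlation of 0.570, agaA_1 with 0.486 and pafA with 0.451.

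The only member tested in more than 1 bacterium was trpB, in F. rodentium and D. muris. Within each library, the log2 level of trpB in D. muris was subtracted from that in F. rodentium, and limma compared the difference at 2.5% with that at 0%. The change in F. rodentium exceeded that in D. muris by 1.15 ± 0.83 (SE) on the log2 scale with a prior count of 2, with 8 libraries at 2.5% and 9 at 0% and an adjusted p of 0.441 by limma over 287 shared symbols. A difference between the bacteria was thus not shown, and of the 287 symbols limma called 0, or 0%, with 53 at an unadjusted p under 0.05. Without libraries 76 to 81 the difference was 0.86 with an adjusted p of 0.626 by limma.

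In L.bacterium335, trpA and trpB had counts in 9 of 10 libraries at 2.5%, against no count in any of the 10 libraries at 0%. The 10 libraries at 0% held 757208 counts on this genome, which allows up to 3.96 CPM for either gene, in CPM of the genome total without TMM scaling. Of trpA, 18, 44 and 99 counts were found at 0.5%, 1% and 2.5%, in 4, 8 and 9 of the 10 libraries. Of trpB, 13, 28 and 249 counts were found at those doses, in 3, 6 and 9 of the 10 libraries. The highest trpB counts were 69 and 44, in replicates 8 and 10 of the 2.5% group, and replicate 9 of that group had no count of either gene.

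In CPM of the genome total, trpA stood at 17.2 at 0.5%, 22.7 at 1% and 19.1 at 2.5%. These levels were 4.33-fold, 5.74-fold and 4.81-fold the level that 3 counts would give at 0%. With TMM scaling the ratios were 5.93-fold, 5.96-fold and 3.71-fold. They set 0% at 3 counts over the group's total. In 0% libraries, 59.1 to 82.5% of the counts lay on the 5 features with most counts. In 2.5% libraries that share was 13.4 to 23.99%, except 79.1% in replicate 9, which had no trpA or trpB count. Relative to the remaining features the ratios at 2.5% would be smaller, which was not computed. No error of the dose group enters the ratios either, so they are not lower limits of the change. At 0.5%, 12 of the 18 trpA counts lay in replicate 2, and without it trpA stood at 6.19 CPM, 1.56-fold the level of 3 counts at 0%. For trpB the levels were 12.4, 14.5 and 47.9 CPM, or 3.13-fold, 3.65-fold and 12.1-fold the level of 3 counts at 0%. With TMM scaling these ratios were 4.29-fold, 3.79-fold and 9.32-fold. At 0.5%, 9 of the 13 trpB counts lay in replicate 7. Without it trpB stood at 3.94 CPM, below the 3.96 CPM that the 0% group allows, so no excess remained at that dose. At 2.5% the 95% Poisson interval, which covers counting error only, was 42.2 to 54.3 CPM for trpB and 15.5 to 23.2 for trpA. Between 0.5% and 2.5%, trpA kept overlapping intervals, while the interval of trpB at 2.5% lay above those at 0.5% and 1%. These intervals leave out the spread between libraries. The highest trpB level in a library was 276 CPM at 0.5%, in replicate 7, and 87.0 CPM at 2.5%, in replicate 8. The levels at 0.5% and 2.5% were not tested against each other.

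Neither gene passed the filter on low counts. With no filter, edgeR called both at every dose over 0%, with adjusted p-values between 0.000575 and 0.0184, but so were 56% of all L.bacterium335 features at 0.5%, 65.3% at 1% and 76.7% at 2.5%. A count was found on 15.2 to 79.6% of the features in 2.5% libraries, against 11.99 to 15.5% in 0% libraries, and the total on this genome was 5194973 at 2.5% against 757208 at 0%. Most features of the genome were thus called alongside trpA and trpB. The slope without a filter was called for trpB, with an adjusted p of 0.0104 by edgeR, and not for trpA, with an adjusted p of 0.842, against 66.2% of features.

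In Acetatifactor, there were more trpB counts at each higher dose, with 7 counts at 0%, 13 at 0.5%, 54 at 1% and 213 at 2.5%, in 2, 3, 8 and 9 of the 10 libraries. In CPM of the genome total this was 19.2, 33.9, 70.3 and 165, with 95% Poisson intervals, for counting error only, of 7.70 to 39.5, 18.03 to 57.9, 52.8 to 91.8, and 143 to 188. A single library held most of the counts in the low groups, with 11 of the 13 at 0.5% in replicate 8 of that group and 6 of the 7 at 0% in replicate 8 of that group. Without those libraries the levels were 6.91 CPM at 0.5%, from 2 counts, and 2.93 CPM at 0%, from 1 count. At 2.5%, 83, 57 and 32 counts lay in replicates 3, 10 and 2, and replicate 8 had none. The level at 2.5% was 8.59-fold that at 0% on genome totals, and 4.94-fold after TMM scaling, which moves the ratio by more than 1.5 times.

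Acetatifactor trpB did not pass the filter on low counts either. With no filter, its log2 change at 2.5% over 0% was 1.78 ± 0.85 (SE), with an adjusted p of 0.0565 by edgeR, where 65.2% of features were called. At 1% it was 1.27 with an adjusted p of 0.209, where 47.5% of features were called, and at 0.5% it was -0.34 with an adjusted p of 0.879, where 20.8% were called. The slope was 0.77 ± 0.30 (SE) per percent of broccoli, with an adjusted p of 0.0310 by edgeR, against 49.2% of features called in the slope. In the same fit the median log2 change of all features was 2.45 at 2.5%, 1.99 at 1% and 1.36 at 0.5%. At each dose the change of trpB was thus below that of the typical Acetatifactor feature. The median slope was 0.65, below that of trpB. Whether trpB differed from the other features was not tested.

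The pathway lists were also counted in the other bacteria. In L.bacterium335, 4 of 4 tested shikimate genes and 6 of 6 tested genes for serine, glutamine and phosphoribosyl pyrophosphate were called higher by edgeR at 2.5% over 0%, where 77.8% of tested features were. Of its 2 tested genes of the phenylalanine and tyrosine list, pheA, whose product leads to phenylalanine, was higher. The other, hisC_3, a copy of the histidine synthesis aminotransferase gene, was lower. In Acetatifactor, the only tested shikimate gene, aroA, and 5 of 5 tested genes for serine, glutamine and phosphoribosyl pyrophosphate were called higher at 2.5%, where 54.5% of tested features were. In 0% libraries a count was found on only 11.99 to 15.4% of L.bacterium335 features and 12.3 to 29.8% of Acetatifactor features. Features of these genomes could thus pass the filter through the broccoli groups alone, which made a higher call likely in advance. In L.bacterium335 the median log2 change was 8.04 for the shikimate genes, against 7.94 over all tested features. These calls therefore do not set the lists apart. In X. muris, edgeR called none of 2 tested shikimate genes, aroB and aroC, nor hisC at 2.5%, where 11% of tested features were called, and none of the 3 had an unadjusted p under 0.05.

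**Figure D4:**
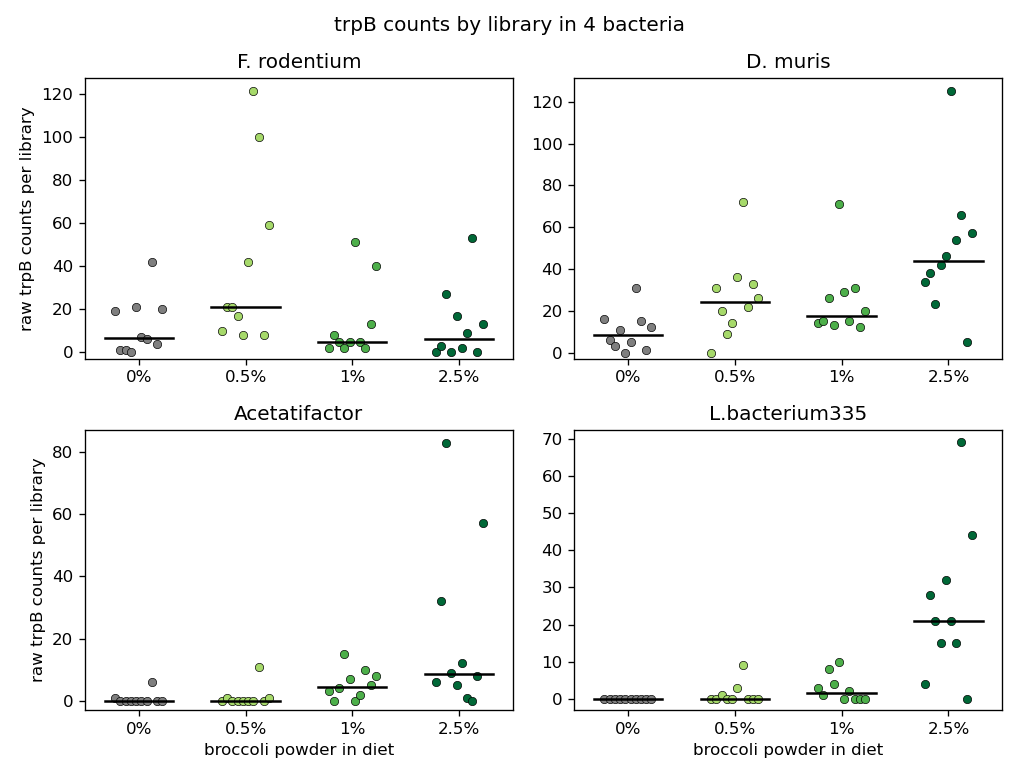
Raw trpB counts per library (vertical axis) by percent of broccoli powder (horizontal axis) in 4 bacteria; points are libraries, all 10 per group, and bars are medians. In L.bacterium335 every 0% library sits at 0, and in Acetatifactor 8 of the 10 do.

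Taking the 4 bacteria with a trpB row together, the bacterium that gave most trpB counts differed between diets. F. rodentium gave 53.1% of the 228 trpB counts at 0%, 58.5% of 696 at 0.5%, 28.9% of 461 at 1% and 11.5% of 1076 at 2.5%. D. muris gave 43.9%, 37.8%, 53.4% and 45.5% at those doses. L.bacterium335 gave 0% at 0%, 1.87% at 0.5%, 6.07% at 1% and 23.1% at 2.5%, and Acetatifactor 3.07%, 1.87%, 11.7% and 19.8%. F. rodentium gave the largest share in 0 of 10 libraries at 2.5%, against 6 of 10 at 0%. At 2.5%, D. muris had the largest share in 7, among them replicate 10, where it tied with Acetatifactor at 57 counts each.

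These shares moved with the bacteria's totals. Of all counts on the 4 genomes, F. rodentium held 15.7% at 2.5% and 82.8% at 0%, and L.bacterium335 held 58.9% at 2.5% and 9.52% at 0%. D. muris held 10.7% of the totals at 2.5% and 3.10% at 0%, below its share of trpB counts in both groups. F. rodentium thus had a higher trpB level within its own counts at 2.5% than at 0%, and a smaller share of the trpB counts. The shares are descriptions of summed counts, in which deeper libraries weigh more, and carry no test.

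**Figure D5:**
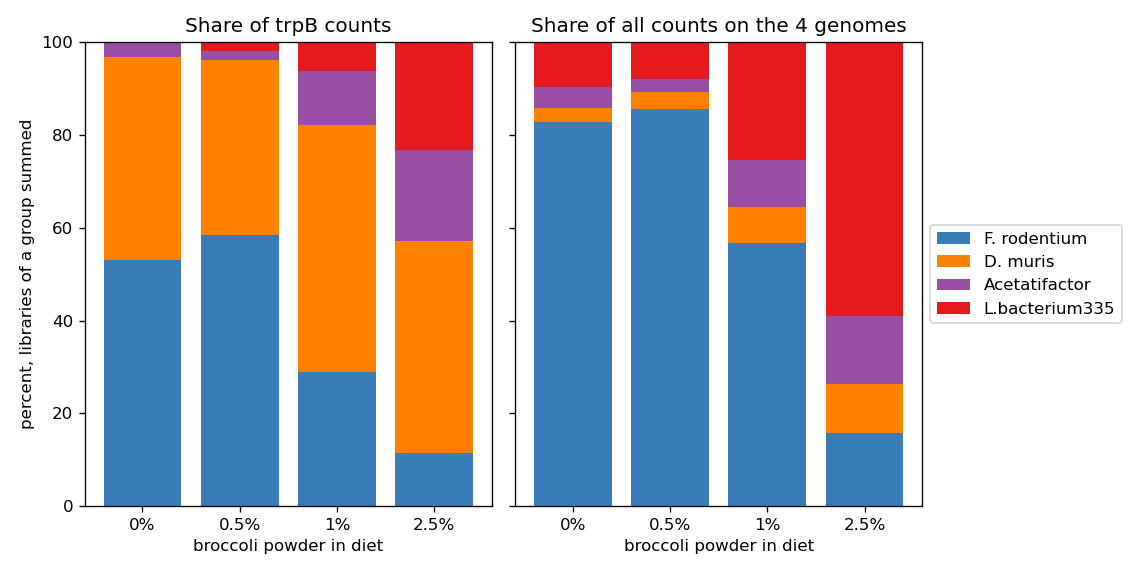
Share of trpB counts (left) and of all counts on the 4 genomes (right) given by each bacterium, in percent of the group's summed counts (vertical axis), by percent of broccoli powder (horizontal axis). F. rodentium falls below the other bacteria in trpB counts at 2.5%, at 11.5%, and D. muris has the largest trpB share there, at 45.5%.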

How the data were processed

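Per the labels' protocols, RNA of cecal contents was depleted of ribosomal RNA and sequenced. The authors deposited raw counts per feature, 1 table per bacterial genome; aligner, counter, strandedness, builds and the treatment of reads shared between genomes: not given in the sources used here. The treatment label set the groups; replicates are numbered by accession order, which pairs nothing.

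Each genome was fitted alone with edgeR 4.0.16 (R 4.3.3): libraries with at least 10000 counts on it, filterByExpr, TMM, glmQLFit and glmQLFTest over all 4 groups, two-sided, threshold 0.05 after Benjamini-Hochberg correction over each genome's tested features per contrast. SE is the log2 change divided by the square root of F. The 4 stable RNAs ffs, rnpB, rrf and ssrA of X. muris were left out. Alternatives were DESeq2 1.42.0, RLE scaling, no filter, other depth minimums, thinning, the genome total as covariate, adjustment over 5 genomes, and leaving out libraries; limma 3.58.1 tested differences between bacteria. Intervals are at 95%, and a count of 0 was bounded by 3 counts. All members, and every feature of the 5 fixed pathway lists where it was tested, could be named. Members and lists were chosen with earlier results of these data known.

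Tested on simulated F. rodentium counts over 1618 genes, the 2.5% over 0% fit recovered 66.7% of 2-fold and 97.8% of 4-fold changes. For D. muris, over 997 genes, it recovered 55.4% and 97.6%. The changed genes were drawn at random from all tested genes. The F. rodentium members ranked 1171 to 1615 by level among 1689 tested features, and recovery for genes that low was not measured separately.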

Additional observations from a re-analysis of the deposited data

Results flagged for a closer look

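Among 28 sets of a tested gene and a diet group, 3 had a highest library set apart from the others by a gap large against the group's range. For normally distributed levels, chance alone would set apart about 1 in 20 such sets. These CPM are bounded at 0 and some rest on few counts, so the rate here is not known. In F. rodentium trpC, replicate 5 of the 2.5% group held 273 CPM, from 46 counts, and the next library 124 CPM. In F. rodentium trpB, replicate 5 of the 0% group held 72.3 CPM, from 21 counts, and the next library 28.9 CPM. Also in F. rodentium trpB, replicate 5 of the 1% group held 165 CPM, from only 5 counts, and the next library 68.6 CPM.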

How the results depend on the processing

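No direction of a called member reversed under any alternative run. In F. rodentium the count of members called at 2.5% over 0% was 4; it was 2 without libraries 76 to 81, 0 with the genome total as covariate, 5 with adjustment over all 5 genomes (trpA added, adjusted p = 0.0357), and 1 to 4 with 1 library left out. The slope count, 2, was 0 with the genome total as covariate, 5 with adjustment over all 5 genomes and 3 with DESeq2 (trpB added), and ranged between 0 and 4 with 1 library left out. At 0.5% the count of 0 ranged between 0 and 1 with 1 library left out. RLE in place of TMM shifted the median log2 change of all F. rodentium features to 0.12 and kept the count at 4, as did no filter, no minimum of counts and DESeq2. Of all features, 260 were called by DESeq2 at 2.5% over 0%, 304 with adjustment over 5 genomes, 102 without libraries 76 to 81, 78 with the genome total as covariate and 159 in the fit reported. With no filter on low counts, L.bacterium335 had 2 members called at 0.5%, 2 at 1%, 2 at 2.5% and 1 in the slope, and Acetatifactor 1 in the slope, against 0 tested with the filter. The cause was not tested. Not run: at least 50000 counts for D. muris and Acetatifactor and for the comparison of bacteria, and a count on at least 50% of features for Acetatifactor and L.bacterium335, since no 0% library qualified. Thinning to 10000 counts left 0 F. rodentium members tested and gave no value. No paired analysis was possible because the labels carry no replicate numbers shared between groups. A single F. rodentium count is worth up to 24.7 CPM at 2.5%, which limits members listed at 0 there.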
